A study of Homo sapiens with 16 samples.

Results

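The response of Jurkat cells, a human T cell leukaemia line, to 4 h of an antibody against CD3 given together with the phorbol ester PMA was described across all expressed genes. The experiment comprised 4 of the 16 RNA sequencing libraries of a series on stimulated immune cancer lines, and they were chosen by their titles. The stimulated cells received anti-CD3 at 5 µg/ml and PMA at 100 ng/ml (2 libraries), and the control cells were untreated (2 libraries, no vehicle named in the labels). Both groups carried the wild-type genotype. The other 12 libraries came from the monocytic lines THP-1 (with dCas9-KRAB, a repressor that cuts no DNA) and U937, given LPS at 1 µg/ml and 200 ng/ml, and from the B cell line BJAB, given anti-IgM at 10 µg/ml with anti-CD40 at 4 µg/ml, each beside untreated cells. They were used here to test where the change in Jurkat differed from theirs and, in an alternative fit, to estimate the spread between libraries. No label says whether the libraries of a group came from separate cultures, so the p-values measure the spread between libraries, which may be technical. Of the 27311 genes listed, 11920 reached 1 TPM (a level per transcript length, scaled to the same total in each library) in at least 2 of the 4 Jurkat libraries, and these were tested.

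An antibody to CD3 crosslinks the T cell receptor, whose CD3 and zeta chains are phosphorylated by LCK and then recruit the kinase ZAP70 and the adaptor LAT. Downstream, phospholipase C releases calcium, which activates calcineurin and the NFAT factors, and diacylglycerol, which activates protein kinase C and RASGRP1. PMA mimics diacylglycerol and so drives the protein kinase C, RAS and NF-kB branches directly. Anti-CD3 with PMA has long been used in Jurkat to induce the growth factor IL2 and the early activation antigen CD69. Since every stimulated library received both agents, their effects cannot be told apart.

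The libraries held 7437865 and 7286645 reads after stimulation, against 8136836 and 6268819 reads in the controls, counted back from the smallest steps in each file's TPM. The defining T cell genes were high in all 4 libraries, with CD3D at 2749 and 2710 TPM after stimulation and 2333 and 2098 TPM in the controls. Over the 21 T lineage markers the summed level was 8160 and 8283 TPM after stimulation and 6779 and 6394 TPM in the controls. The adaptor LAT, at 1451 and 1595 TPM after stimulation and 290 and 274 TPM in the controls, made up much of the gap. Of these markers 7 rose and 5 fell (7 and 3 in the pooled fit described below, 3 to 5 and 2 to 3 with 1 Jurkat library left out of it), with a median log2 change of -0.04. The summed level of the B lineage list was 212 and 185 TPM after stimulation and 187 and 209 TPM in the controls, most of it CD79A, an antigen receptor chain that is typical of B cells. That of the monocytic list was 119 and 99.7 TPM after stimulation and 88 and 111 TPM in the controls. Of 16 B lineage and 18 monocytic markers, 5 and 7 passed the filter on low values. None of 6 NK markers did. BANK1 and CIITA of the B lineage list, SPI1, ELANE, S100A8 and CSF3R of the monocytic list, and KLRF1, NCR1 and FCGR3A of the NK list were at 0 in all 4 libraries. Of the B lineage list, POU2AF1 (a coactivator of octamer-binding factors) was at 43.3 and 34 TPM after stimulation and at 5.23 and 4.81 TPM in the controls. Of the monocytic list, CD68 (a lysosomal membrane protein) was at 28.4 and 24.7 TPM after stimulation and at 2.7 and 2.06 TPM in the controls. The part of such cells in the results was not tested. In bulk RNA, fewer cells of a kind and less RNA per cell cannot be told apart.

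At an adjusted p under 0.05 (limma on log2(TPM + 1) of the 4 libraries, Benjamini-Hochberg over all tested genes), 1606 of 11920 genes changed (13.5%). Of these, 844 rose (7.08%) and 762 fell (6.39%), and the stimulated and control values of the called genes did not overlap. Of the tested genes, 76 were at 0 in both controls and all of them were called rises, and 25 were at 0 in both stimulated libraries, of which 24 were called falls. Each passed the filter only through the other group. Some of these genes rest on few reads. RNU11 held at least 1 read in each stimulated library, and MIR130B at least 1 in each control. With the group at 0 set at 3 reads per library, their log2 changes would reverse, to -1.30 and 1.32. Such genes are within counting error, and they are included in the counts of calls. Over all tested genes, both stimulated values lay above both controls for 23.1% and below both for 32.7%. The larger changes were mostly rises. A log2 change of at least 1 was seen in 594 called rises (4.98%) and at most -1 in 368 called falls (3.09%), at least 2 in 202 and at most -2 in 26, and at least 3 in 72 and at most -3 in 6. The genes that rose made up 73774 and 76473 TPM in all after stimulation, against 31866 and 31262 TPM in the controls. The median log2 change of all tested genes was -0.07. In the 4-library fit 0 genes passed without the first or the second control, with 1986 and 1909 genes at an unadjusted p under 0.05, and 321 and 346 passed without the first or the second stimulated library. With all 16 libraries in the fit, 737 genes passed (455 rose, 282 fell), of which 626 were among the 1606. When stimulated library 1 of U937 and of BJAB, which stood apart from their partners, were left out of that fit, 2049 passed (991 rose, 1058 fell). Leaving out single Jurkat libraries from that larger fit, an alternative chosen after seeing the data, left 464 and 479 calls without the first and the second control and 513 and 497 without the first and the second stimulated library. The sign of the 1606 calls could not differ among these fits. Each took the log2 change from the Jurkat libraries alone, and the groups of each called gene were separate. Counts over a list of genes are therefore followed by those of the fit with all 16 libraries, called the pooled fit below. Where a gene was at 0 in the other lines, their libraries lend that fit a spread of 0. The pooled fit also takes in the spread of stimulated library 1 of U937 and of BJAB. Of 259 named genes, 63 lost their call in the pooled fit, and 4 lost it with these libraries left out. Where given, a range with 1 left out is that over the pooled fits without a single Jurkat library. Each count is to be read beside the 844 rises and 762 falls of 11920 genes, or 455 and 282 in the pooled fit. Without either control in the 4-library fit each count is 0.

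**Figure D1:**
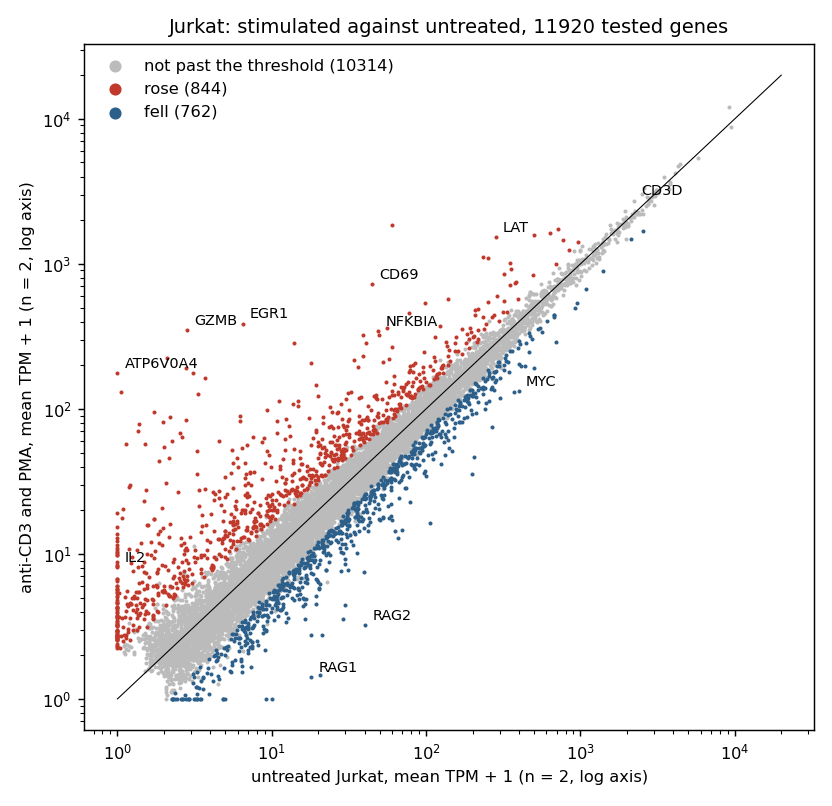
Mean TPM + 1 of 2 stimulated libraries (vertical, log axis) against that of 2 untreated libraries (horizontal, log axis), 1 point per tested gene, with called genes in colour and the diagonal marking equal levels. The 844 genes that rose include points far above the diagonal, such as EGR1 and CD69, while CD3D lies near it and RAG1, RAG2 and MYC lie below it.

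With small RNA genes left out, the 12 largest rises held genes of growth factor signalling, survival and secretion. ATP6V0A4, a membrane subunit of the vacuolar proton pump found mainly in kidney and inner ear, was at 170 and 179 TPM after stimulation. It held at least 955 and 1002 reads there and was at 0 in both controls, at least 312-fold higher against a floor of 3 reads per library. GZMB, the serine protease of cytotoxic granules, was at 329 and 364 TPM after stimulation and at 2.27 and 1.41 TPM in the controls. PLAU, the urokinase plasminogen activator, was at 121 and 139 TPM after stimulation, against 0.103 and 0 TPM in the controls, where 1 read in all fell on it. For each of these genes the lowest stimulated value lay far above the highest control. GEM, a small GTP-binding protein that inhibits calcium channels, was at 68.6 and 70.8 TPM after stimulation and at 0.383 and 0.318 TPM in the controls (log2 change 5.71 ± 0.21 SE, adjusted p = 4.96e-06). SCG2, the precursor of neuroendocrine granule peptides, was at 52 and 60 TPM after stimulation and at 0 and 0.27 TPM in the controls (log2 change 5.66 ± 0.24, adjusted p = 1.07e-05). LINC00659, a non-coding RNA, was at 155 and 198 TPM after stimulation and at 1.18 and 2.95 TPM in the controls (log2 change 5.91 ± 0.29, adjusted p = 1.69e-05). The other rises of this size were BCL2A1, CDKN1A, EGR1, DUSP5, PHLDA1 and NR4A1, which are described with their groups.

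The largest falls, again without small RNA genes, held genes of immature lymphocytes and non-coding RNAs, and they were smaller than the largest rises. LINC01882 was at 0 after stimulation and at 9.7 and 8.47 TPM (at least 10 and 7 reads) in the controls, at least 2.90-fold lower after stimulation. LINC00977 was at 15.6 and 15.1 TPM after stimulation and at 112 and 99.1 TPM in the controls (log2 change -2.71 ± 0.15, adjusted p = 3.52e-05). LINC01225 was at 4.1 and 1.03 TPM after stimulation and at 24.8 and 31.2 TPM in the controls. These non-coding RNAs have no role stated here. PDGFC, a growth factor of the platelet-derived family, was at 3.32 and 3.61 TPM after stimulation and at 36 and 21.4 TPM in the controls. C9, which encodes a pore-forming complement component, was at 1.06 and 2.43 TPM after stimulation and at 18.2 and 16 TPM in the controls. The stimulated values lay below the controls, without overlap, as they did for every called fall. RAG1, RAG2, VPREB1, LMO1, RASGRP1 and P2RY8 were also among the 12 largest and are described below.

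**Figure D2:**
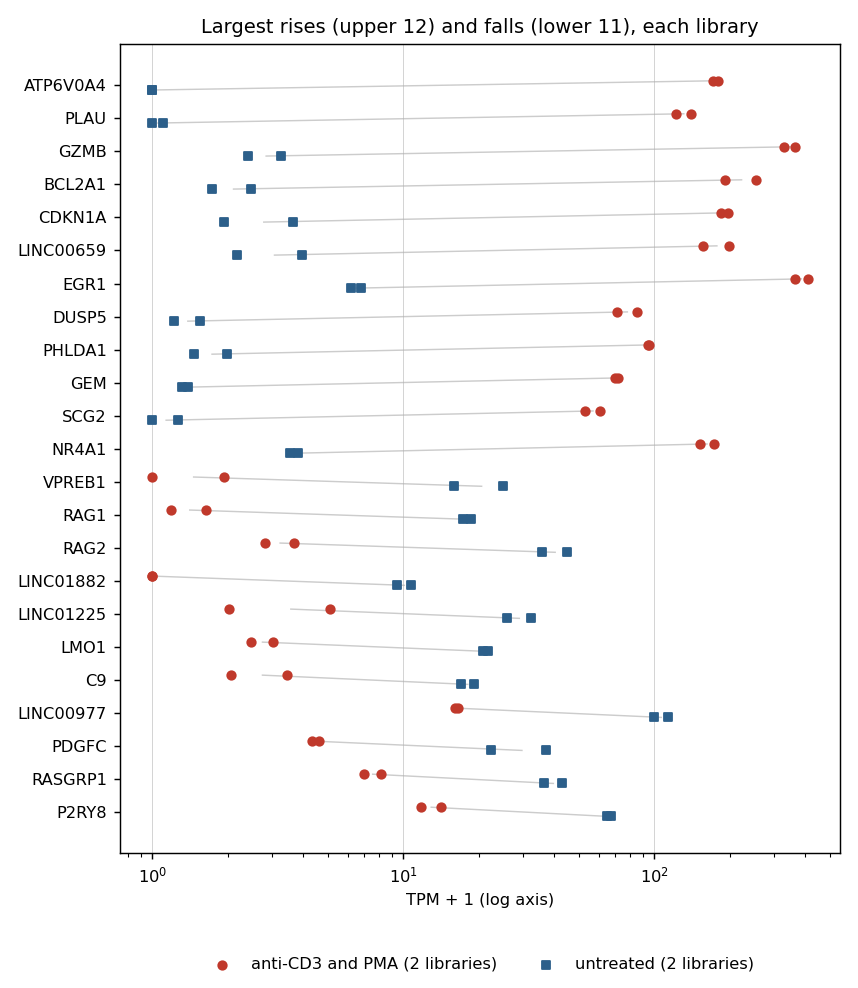
TPM + 1 (log axis) of the 12 largest rises (upper rows) and 11 of the 12 largest falls (lower rows) in each library. Small RNA genes are left out. Stimulated libraries are circles above untreated ones as squares, and a grey line joins the group means. The groups of each gene are separate, as they are for every called gene, and ATP6V0A4 lies at 1 (0 TPM) in both controls.

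Of the CD3 and zeta chains only CD3G passed the test, whereas several adaptors of the receptor did. Of 40 tested genes of the receptor and its proximal signalling, 12 rose and 7 fell (8 and 2 in the pooled fit, 4 to 7 and 0 to 2 with 1 left out), with a median log2 change of 0.06. CD3D had a log2 change of 0.30 ± 0.13 (adjusted p = 0.165), CD3E was at 354 and 244 TPM after stimulation and at 371 and 393 TPM in the controls (adjusted p = 0.213), and the zeta chain CD247 at 267 and 247 TPM after stimulation and at 251 and 277 TPM in the controls (adjusted p = 0.882). CD3G fell, at 335 and 388 TPM after stimulation and at 553 and 542 TPM in the controls (log2 change -0.60 ± 0.13, adjusted p = 0.0195), but did not pass in the pooled fit (adjusted p = 0.208).

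LAT, the membrane scaffold on which the phospholipase C complex assembles, rose to 1451 and 1595 TPM after stimulation, against 290 and 274 TPM in the controls (log2 change 2.43 ± 0.12, adjusted p = 1.83e-05). SH2D2A, a T cell adaptor that binds LCK, was at 113 and 111 TPM after stimulation and at 10.3 and 9.97 TPM in the controls (log2 change 3.34 ± 0.15, adjusted p = 1.51e-05). CD6, a surface receptor that binds CD166, was at 66.5 and 90.5 TPM after stimulation and at 21.8 and 18.9 TPM in the controls (log2 change 1.88 ± 0.19). For these genes both stimulated values lay well above both controls. The inhibitory adaptor DOK2 also rose, to 111 and 130 TPM after stimulation, against 37.1 and 36.2 TPM in the controls. On the side of falls, GRAP2, the adaptor that links LAT to SLP-76, was at 13.3 and 20.9 TPM after stimulation and at 46 and 56.7 TPM in the controls (log2 change -1.56 ± 0.23, adjusted p = 0.00428). The coreceptor CD4 was at 5.46 and 4.25 TPM after stimulation and at 18.3 and 20.4 TPM in the controls (log2 change -1.80 ± 0.22, adjusted p = 0.00165), but did not pass in the pooled fit (adjusted p = 0.12). SH2D1A, the adaptor of SLAM family receptors, was at 66.2 and 81.8 TPM after stimulation and at 286 and 246 TPM in the controls (log2 change -1.84 ± 0.15, adjusted p = 0.000248). The kinase LCK was at 1253 and 1349 TPM after stimulation and at 1288 and 1161 TPM in the controls (adjusted p = 0.707).

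Among the 31 tested genes of diacylglycerol, protein kinase C and RAS signalling, 5 rose and 3 fell (2 and 3 in the pooled fit, 2 and 1 to 2 with 1 left out), and the median log2 change was -0.01. RASGRP1, the diacylglycerol-responsive activator of RAS in T cells, was at 5.95 and 7.15 TPM after stimulation and at 42 and 35.3 TPM in the controls (log2 change -2.39 ± 0.20, adjusted p = 0.000243). Among the kinases that PMA binds, PRKCE was at 17.1 and 17.7 TPM after stimulation and at 2.72 and 2.33 TPM in the controls (log2 change 2.39 ± 0.22, adjusted p = 0.000409). PRKCH was at 38.4 and 48.2 TPM after stimulation and at 96.3 and 92.7 TPM in the controls (log2 change -1.12 ± 0.16, adjusted p = 0.00334). These isoforms thus changed in opposite directions. The other protein kinase C genes above the filter did not pass: PRKCQ, the isoform of the T cell synapse, was at 49.8 and 47.8 TPM after stimulation and at 53.5 and 53.1 TPM in the controls, and PRKCA, PRKCB, PRKCD and the PMA-insensitive PRKCI had adjusted p-values of 0.0878, 0.978, 0.0866 and 0.0874. The RAS inhibitor RASAL3 was at 18.4 and 26.1 TPM after stimulation and at 3.47 and 6.27 TPM in the controls, and the ERK kinase MAPK3 at 49.4 and 60.9 TPM after stimulation and at 23.5 and 26.8 TPM in the controls, without a call for MAPK3 in the pooled fit (adjusted p = 0.187). DGKE, a kinase that removes diacylglycerol, was at 5.47 and 3.59 TPM after stimulation and at 12.1 and 11.7 TPM in the controls.

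Of 28 tested calcium, calcineurin and NFAT genes, 3 rose and 2 fell (2 and 3 in the pooled fit, 1 and 1 to 2 with 1 left out), with a median log2 change of 0.12. PPP3CA, the catalytic subunit of calcineurin, was at 36 and 41.4 TPM after stimulation and at 9.58 and 8.17 TPM in the controls (log2 change 2.01 ± 0.19, adjusted p = 0.000438). RCAN1, an inhibitor of calcineurin that is itself a known NFAT target, was at 2.81 and 2.67 TPM after stimulation and at 10.3 and 9.53 TPM in the controls (log2 change -1.55 ± 0.23, adjusted p = 0.00423). ITPKA, which phosphorylates inositol trisphosphate, was at 22.3 and 22 TPM after stimulation and at 0.602 and 0.376 TPM in the controls (log2 change 3.97 ± 0.24). The remaining called members were the calcium sensor STIM2, which rose by 0.98 ± 0.23 but did not pass in the pooled fit (adjusted p = 0.221), and the kinase CAMK4, with a log2 change of -0.79 ± 0.20. STIM1, the main sensor, was at 63.9 and 49.6 TPM after stimulation and at 59.9 and 57.1 TPM in the controls.

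Of the 5 NF-kB subunit genes, 4 rose. RELB, a subunit that is induced by NF-kB itself, was at 41.4 and 44.1 TPM after stimulation and at 1.1 and 0.611 TPM in the controls (log2 change 4.57 ± 0.23, adjusted p = 1.92e-05). NFKB2, the precursor of p52, was at 11.1 and 10.8 TPM after stimulation and at 0.645 and 1.07 TPM in the controls, and NFKB1, the precursor of p50, at 47.8 and 53.8 TPM after stimulation and at 11.8 and 10.7 TPM in the controls. The subunit REL rose by 1.63 ± 0.20 and the kinase MAP3K14 by 1.24 ± 0.26 on the log2 scale. MAP3K14 did not pass in the pooled fit (adjusted p = 0.182). The subunit RELA was at 61 and 54.4 TPM after stimulation and at 52.7 and 64.9 TPM in the controls (adjusted p = 0.95), so its groups overlapped.

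Of 27 NF-kB feedback and target genes, 12 rose and 0 fell (7 and 0 in the pooled fit, 5 and 0 with any left out), with a median log2 change of 0.51. NFKBIA, the inhibitor that returns NF-kB to the cytoplasm, was at 315 and 367 TPM after stimulation and at 45.3 and 50.5 TPM in the controls (log2 change 2.80 ± 0.14, adjusted p = 1.83e-05). TRAF1, a signalling adaptor of TNF receptors, was at 59.1 and 58.3 TPM after stimulation and at 0.852 and 1.67 TPM in the controls (log2 change 4.75 ± 0.24). IER3, an early response gene, was at 99.1 and 65.5 TPM after stimulation and at 1.87 and 1.68 TPM in the controls (log2 change 4.88 ± 0.24). In all of these the stimulated values stood well apart from the controls. The ubiquitin ligase BIRC3 rose by 2.79 ± 0.18, the RNase ZC3H12A by 2.12 ± 0.21 and the surface protein CD83 by 2.01 ± 0.17. Of these, ZC3H12A did not pass in the pooled fit (adjusted p = 0.217). Other known targets did not pass: the transcription factor IRF1 was at 55.4 and 48.6 TPM after stimulation and at 77.7 and 68.2 TPM in the controls (adjusted p = 0.0793), and TNFAIP8 was at 74.9 and 68.5 TPM after stimulation and at 82.1 and 63 TPM in the controls.

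Immediate-early genes, which are transcribed without new protein synthesis and encode many transcription factors, held the longest list of rises. Of 37 tested, 22 rose and 1 fell (16 and 0 in the pooled fit, 10 to 12 and 0 with 1 left out). The median log2 change was 1.52, or 1.12 with EGR4, which was at 0 in both controls, set at its bound. EGR1, a zinc finger factor induced through ERK, was at 361 and 408 TPM after stimulation and at 5.77 and 5.2 TPM in the controls (log2 change 5.89 ± 0.15, adjusted p = 1.51e-06). NR4A1, an orphan nuclear receptor that reports receptor signalling in T cells, was at 151 and 171 TPM after stimulation and at 2.54 and 2.82 TPM in the controls (log2 change 5.46 ± 0.18, adjusted p = 2.6e-06). EGR2, which restrains T cell activation, was at 29.7 and 28 TPM after stimulation and at 0.176 and 0.22 TPM in the controls (log2 change 4.64 ± 0.23). For these genes the values of the stimulated libraries lay close to each other and far above the controls. FOS, a subunit of AP-1, was lower, at 19.3 and 20.4 TPM after stimulation and 1.55 and 0.322 TPM in the controls (log2 change 3.51 ± 0.33, adjusted p = 0.000438). NAB2, a corepressor of EGR1, was at 34.3 and 34.4 TPM after stimulation and at 1.95 and 2.56 TPM in the controls. The member that fell was MYC, the growth regulator, at 127 and 137 TPM after stimulation and at 377 and 415 TPM in the controls (log2 change -1.58 ± 0.13, adjusted p = 0.000197), without a call in the pooled fit (adjusted p = 0.236). The AP-1 factor BATF was at 22 and 29 TPM after stimulation and at 29 and 37.7 TPM in the controls, with no call.

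Of 22 tested MAP kinase feedback genes, 13 rose and 2 fell (12 and 1 in the pooled fit, 7 to 8 and 0 with 1 left out), with a median log2 change of 1.34. DUSP4, at 0 in both controls, could pass the filter only through the stimulated libraries. DUSP2, a nuclear phosphatase of ERK and p38, was at 1516 and 2179 TPM after stimulation and at 40.8 and 78.1 TPM in the controls (log2 change 4.98 ± 0.29, adjusted p = 3.77e-05). DUSP5, a nuclear ERK phosphatase, was at 69.9 and 84.4 TPM after stimulation and at 0.22 and 0.549 TPM in the controls (log2 change 5.82 ± 0.23). DUSP6, its cytoplasmic counterpart, was at 93.5 and 79.5 TPM after stimulation and at 1.64 and 0.716 TPM in the controls (log2 change 5.36 ± 0.25). DUSP2 thus reached the highest level of the phosphatases. PHLDA1 was at 94 and 93.5 TPM after stimulation and at 0.989 and 0.47 TPM in the controls, and the RAS pathway inhibitor SPRY4 at 18.9 and 13.6 TPM after stimulation and at 0.805 and 0.628 TPM in the controls. The members that fell were DUSP1, with a log2 change of -0.64 ± 0.17 (adjusted p = 0.584 in the pooled fit), and DUSP7, with one of -1.12 ± 0.22.

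The 250 bases before the start of 5 of these induced genes are shown to set the measured rises beside the motifs of the factors that the stimulus is known to activate. The sequences and starts are those of RefSeq on GRCh38.p14, and the start used by Jurkat was not tested. Capitals mark matches on either strand to the AP-1 motif TGANTCA, the NF-kB motif (GGG, any 2 bases, TTTCC), the EGR motif GCGNGGGCG or the CArG box, which the serum response factor binds.
EGR1, chr5:138465229-138465478, plus strand: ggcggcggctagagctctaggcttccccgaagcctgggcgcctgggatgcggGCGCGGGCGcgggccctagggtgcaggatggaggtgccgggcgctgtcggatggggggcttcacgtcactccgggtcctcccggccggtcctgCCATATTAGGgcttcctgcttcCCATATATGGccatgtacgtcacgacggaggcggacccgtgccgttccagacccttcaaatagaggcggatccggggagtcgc
NFKBIA, chr14:35404750-35404999, minus strand: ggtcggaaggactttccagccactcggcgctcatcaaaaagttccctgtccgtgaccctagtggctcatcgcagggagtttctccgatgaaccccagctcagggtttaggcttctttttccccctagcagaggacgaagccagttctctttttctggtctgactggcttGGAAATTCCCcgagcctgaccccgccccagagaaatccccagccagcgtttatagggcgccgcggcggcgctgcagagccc
CXCL3, chr4:74038690-74038939, minus strand: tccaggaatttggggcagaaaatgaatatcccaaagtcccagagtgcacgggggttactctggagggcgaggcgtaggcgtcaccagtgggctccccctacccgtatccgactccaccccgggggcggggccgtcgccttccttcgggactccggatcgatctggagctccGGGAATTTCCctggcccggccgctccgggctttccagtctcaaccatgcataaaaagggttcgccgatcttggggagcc
CXCL8, chr4:73740319-73740568, plus strand: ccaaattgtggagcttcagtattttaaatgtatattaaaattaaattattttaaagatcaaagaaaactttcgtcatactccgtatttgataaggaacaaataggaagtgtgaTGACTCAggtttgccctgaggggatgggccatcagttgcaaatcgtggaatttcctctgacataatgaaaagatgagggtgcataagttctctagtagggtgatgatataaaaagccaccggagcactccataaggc
GZMB, chr14:24634191-24634440, minus strand: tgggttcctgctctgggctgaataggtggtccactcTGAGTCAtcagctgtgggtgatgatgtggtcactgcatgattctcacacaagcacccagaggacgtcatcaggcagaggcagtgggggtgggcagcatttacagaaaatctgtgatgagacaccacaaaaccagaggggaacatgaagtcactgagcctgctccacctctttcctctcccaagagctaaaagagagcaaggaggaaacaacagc

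EGR1 held 2 CArG boxes, whose first bases lay 105 and 83 bases before the start, and an EGR match 198 bases before it. NFKBIA and CXCL3 each held 1 NF-kB match, 81 and 79 bases before the start, and CXCL8 and GZMB each 1 AP-1 match, 137 and 214 bases before it. The patterns are strict, and letters 1 base off a motif are not marked, such as TGGAATTTCC in CXCL8, which is 1 base off the NF-kB motif. Among the other named genes whose promoters were in the table, an NF-kB match lay 86 bases before the start of LTB and 199 before that of BIRC3, and an AP-1 match 77 bases before that of IL23A. Of the 21 scanned promoters of named genes that rose, 11 had no match, among them those of NR4A1, EGR2 and FOS. A match was held by 3 of 8 promoters of named genes that did not pass, those of IRF1, BATF and TGFB1. In the promoters of RAG1, RAG2, VPREB1 and KIT, which fell, these 4 motifs and the CRE motif TGACGTCA had no match in this window. The AP-1 motif was held by 9.8% of the 643 matched promoters of genes that rose, 4.15% of 554 that fell, 3.9% of 9016 tested and 6.6% of all 27305 in the table. The shares for the NF-kB motif were 2.8%, 0.722%, 1.91% and 1.73% in the same order, those for the EGR motif 16.6%, 15.5%, 13.7% and 8.25%, and those for the CArG box 1.4%, 1.62%, 0.954% and 1.14%. For the CRE motif they were 2.644%, 3.61%, 3.028% and 1.765%, and for the NFAT core GGAAA 53.7%, 47.8%, 53.7% and 56%. The short NFAT core was not marked or counted in the promoters of named genes. A match is a description of the letters and not of a bound site, and the shares were not tested.

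Cytokine genes were mostly silent in untreated Jurkat. Of 41 listed, 21 passed the filter on low values, 14 of these rose and 1 fell (13 and 0 in the pooled fit, 9 to 10 and 0 with 1 left out), and 6 were at 0 in both controls, so that they could pass only by being present after stimulation. The median log2 change was 2.23, or 1.56 with those 6 set at their bound. IL2, the T cell growth factor, was at 8.25 and 6.01 TPM after stimulation and at 0 in both controls. It held at least 11 and 8 reads after stimulation and was at least 3.03-fold higher. CXCL8, a neutrophil chemoattractant, was at 10 TPM in each stimulated library (57 reads in each) and at 0 in both controls, at least 18.2-fold higher. CSF2, the granulocyte-macrophage growth factor, was at 5.72 and 11.8 TPM after stimulation and at 0 in both controls, at least 7.34-fold higher. These bounds are set by depth and transcript length. LTB, the lymphotoxin subunit that anchors it to the membrane, was at 50.3 and 76.5 TPM after stimulation and at 1.64 and 1.6 TPM in the controls (log2 change 4.59 ± 0.25, adjusted p = 2.57e-05). IL23A, the p19 subunit of interleukin 23, was at 79.3 and 96.6 TPM after stimulation and at 5.88 and 4.67 TPM in the controls (log2 change 3.83 ± 0.20). CXCL3, also a neutrophil chemoattractant, was at 54.8 and 63.1 TPM after stimulation and at 4.1 and 3.01 TPM in the controls (log2 change 3.72 ± 0.21). Only LTB, IL23A and CXCL3 of the tested cytokines exceeded 50 TPM in both stimulated libraries. CCL4 was at 17.5 and 8.08 TPM after stimulation and at 0 in both controls; it has near-identical copies, and its reads may be under-counted. The member that fell was FLT3LG, the ligand of FLT3, at 5.52 and 8.03 TPM after stimulation and at 15.9 and 27.3 TPM in the controls (adjusted p = 0.108 in the pooled fit).

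Of 20 tested TNF superfamily ligands and receptors, 12 rose and 1 fell (9 and 0 in the pooled fit, 7 to 8 and 0 with 1 left out), with a median log2 change of 1.31. Of these, 3 (FASLG, TNFSF14 and TNFRSF1B) were at 0 in both controls and could pass the filter only through the stimulated libraries. FASLG, the death ligand of activated T cells, was at 7.1 and 11.4 TPM after stimulation and at 0 in both controls, at least 18.7-fold higher, and the herpesvirus entry mediator ligand TNFSF14 was at 7.89 and 6.83 TPM after stimulation and at 0 in both controls, at least 37.5-fold higher. TNFSF10, which encodes TRAIL, was at 63.5 and 63.2 TPM after stimulation and at 7.54 and 5.67 TPM in the controls (log2 change 3.09 ± 0.19). Among the receptors, TNFRSF4 (OX40) was at 70.2 and 92.8 TPM after stimulation and at 9.58 and 10.1 TPM in the controls (log2 change 2.92 ± 0.19), and TNFRSF12A rose by 3.06 ± 0.22. TNFRSF21 fell, to 23.4 and 15.1 TPM after stimulation, against 48.7 TPM in each control (adjusted p = 0.355 in the pooled fit). TNFRSF1A, the widely expressed TNF receptor, was at 93.6 and 70.8 TPM after stimulation and at 57.4 and 67.6 TPM in the controls, with no call.

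Of 34 cytokine receptor and SOCS genes, 14 rose and 0 fell (8 and 0 in the pooled fit, 3 to 4 and 0 with 1 left out), and the median log2 change was 0.55. IL2RA, the inducible chain of the IL2 receptor, was at 54.6 and 57.4 TPM after stimulation and at 1.04 and 0 TPM in the controls (log2 change 5.32 ± 0.33, adjusted p = 5.32e-05). IL21R was at 28.3 and 24.9 TPM after stimulation and at 0.328 and 0.75 TPM in the controls (log2 change 4.18 ± 0.25), and SOCS1, an inhibitor of JAK kinases, at 11.3 and 12.8 TPM after stimulation and at 0.916 and 1.43 TPM in the controls. The controls of these receptors lay close to 0. IL27RA rose by 2.29 ± 0.24 (adjusted p = 0.142 in the pooled fit), IL4R by 1.76 ± 0.36 and TGFBR2 by 1.74 ± 0.25. STAT3 was at 71 and 75.2 TPM after stimulation and at 52.4 and 51.4 TPM in the controls (adjusted p = 0.0562).

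**Figure D3:**
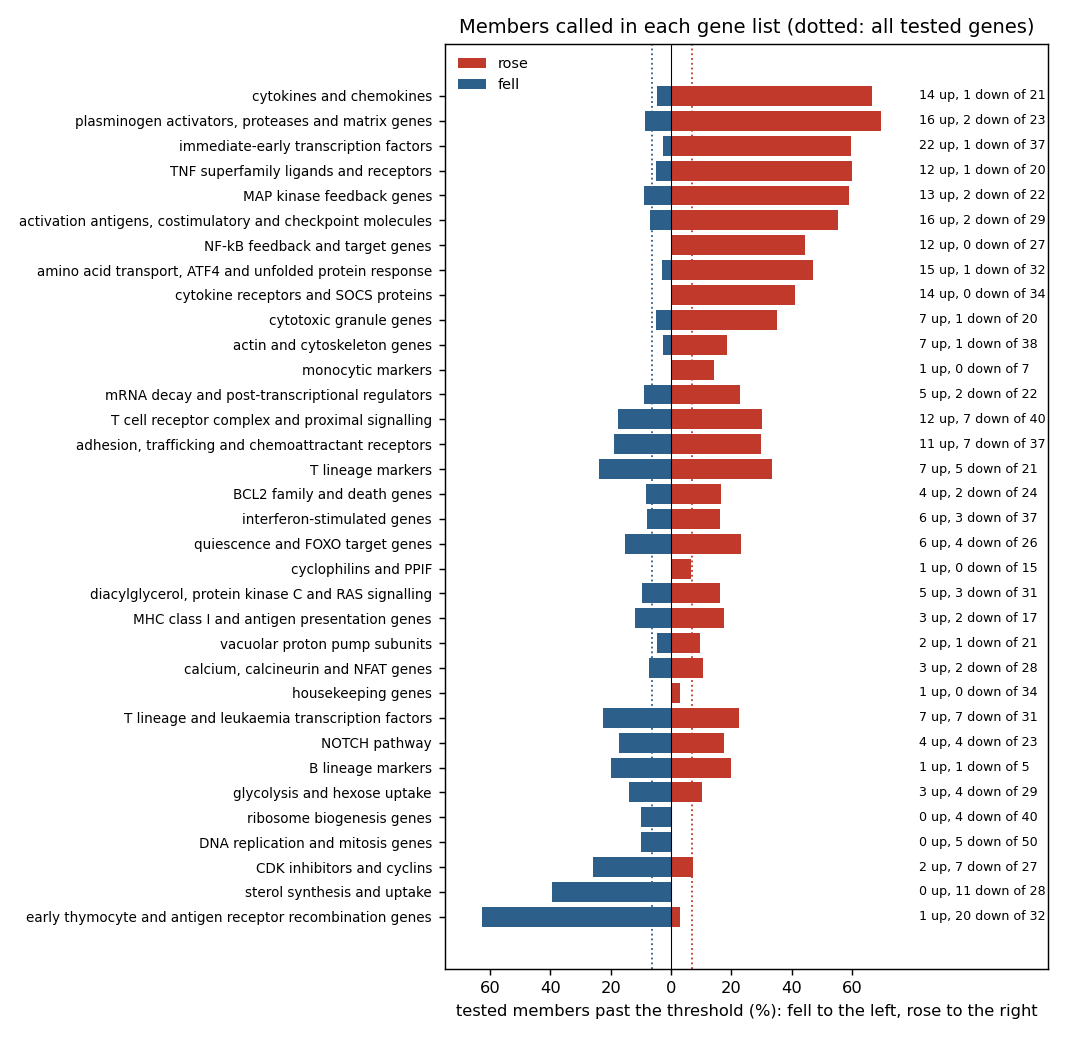
Share of the tested members of the gene lists that rose (right) or fell (left) at an adjusted p under 0.05, in percent, with the counts at the right edge and dotted lines at the shares of all tested genes (7.08% rose, 6.39% fell). Cytokine, matrix and immediate-early lists lie far to the right, and the early thymocyte and sterol lists lie far to the left.

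Of 29 tested activation, costimulatory and checkpoint genes, 16 rose and 2 fell (9 and 1 in the pooled fit, 7 to 9 and 0 to 1 with 1 left out), with a median log2 change of 0.76. CD44 and CRTAM were at 0 in both controls, so that they could pass the filter only through the stimulated libraries. CD69 was at 627 and 815 TPM after stimulation and at 50.3 and 37.5 TPM in the controls (log2 change 4.01 ± 0.19, adjusted p = 1.52e-05). PDCD1, which encodes the inhibitory receptor PD-1, was at 29.6 and 30.4 TPM after stimulation and at 1.45 and 0.658 TPM in the controls (log2 change 3.94 ± 0.26). CD44, the hyaluronan receptor, was at 5.69 and 3.68 TPM after stimulation and at 0 in both controls, at least 33.3-fold higher. Of these, CD69 already had a clear level in untreated cells. The ectonucleotidase NT5E was at 30.8 and 22.9 TPM after stimulation and at 3.9 and 1.54 TPM in the controls, and SLAMF7 and CD300A rose by 3.03 ± 0.32 and 2.63 ± 0.33. The members that fell were LAIR1, a collagen-binding inhibitory receptor, at 14.6 and 17.5 TPM after stimulation and at 67.1 and 51.8 TPM in the controls, and CD38, with a log2 change of -0.94 ± 0.25 (adjusted p = 0.279 in the pooled fit). The transferrin receptor TFRC, commonly used as an activation marker, was at 279 and 104 TPM after stimulation and at 339 and 275 TPM in the controls, with no call and a wide gap between the stimulated libraries.

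Of 20 tested cytotoxic granule genes, 7 rose and 1 fell (5 and 1 in the pooled fit), with a median log2 change of 0.52. GZMB led by far (log2 change 6.95 ± 0.20, adjusted p = 1.78e-06), with 1078 and 1194 reads after stimulation and 8 and 4 reads in the controls. GZMH, a related granzyme, was at 10.5 and 11.7 TPM after stimulation and at 2.01 and 3.93 TPM in the controls (log2 change 1.65 ± 0.29, adjusted p = 0.00865). GZMA was at 86.5 and 96.3 TPM after stimulation and at 67.4 and 61.2 TPM in the controls (adjusted p = 0.0553). The granzymes thus differed among themselves in the size of their change. RUNX3, a factor of the cytotoxic lineage, rose by 2.06 ± 0.26, ZNF683 by 1.92 ± 0.36 and the fusion protein STX11 by 1.71 ± 0.26 (adjusted p = 0.0749 for STX11 in the pooled fit). CD8B, a coreceptor chain of cytotoxic cells, was at 1.28 TPM in each stimulated library and at 5.21 and 5.39 TPM in the controls (log2 change -1.47 ± 0.25, adjusted p = 0.00774).

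Jurkat resembles cortical thymocytes in expressing the recombinase and the CD1 molecules. Of 32 tested early thymocyte and antigen receptor recombination genes, 20 fell and 1 rose (10 and 1 in the pooled fit, 7 to 8 and 0 to 1 with 1 left out, and 18 and 2 under median-of-ratios scaling), with a median log2 change of -0.75. RAG2 was at 1.8 and 2.66 TPM after stimulation (17 and 25 reads) and at 43.7 and 34.8 TPM in the controls (443 and 283 reads), a log2 change of -3.64 ± 0.24. RAG1, its partner in cutting antigen receptor genes, had 14 and 4 reads after stimulation and 417 and 309 reads in the controls, a log2 change of -3.69 ± 0.27. VPREB1, a surrogate light chain otherwise typical of early B cells, had 0 and 2 reads after stimulation and 35 and 45 reads in the controls. For the recombinase genes every stimulated value lay far below every control. KIT, the receptor of stem cell factor, was at 0.347 and 0 TPM after stimulation and at 1.94 and 3.22 TPM in the controls. The remaining falls were smaller, with log2 changes of -0.56 (SATB1) to -1.43 (CD1D) for those other than CD4, CD8B and KIT; DNTT, which adds bases at the junctions, was at 164 and 166 TPM after stimulation and at 284 and 255 TPM in the controls (log2 change -0.70 ± 0.13, adjusted p = 0.00938). SATB1, CD1D and DNTT did not pass in the pooled fit, with adjusted p-values of 0.699, 0.0561 and 0.21. The repair proteins XRCC5 and XRCC6, which join the cut ends in all cells, had log2 changes of -0.03 and -0.06 (adjusted p = 0.907 and 0.815). IL7R, the receptor of interleukin 7, was the 1 member that rose (44.7 and 40.2 TPM after stimulation, 28.2 and 19.4 TPM in the controls).

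**Figure D4:**
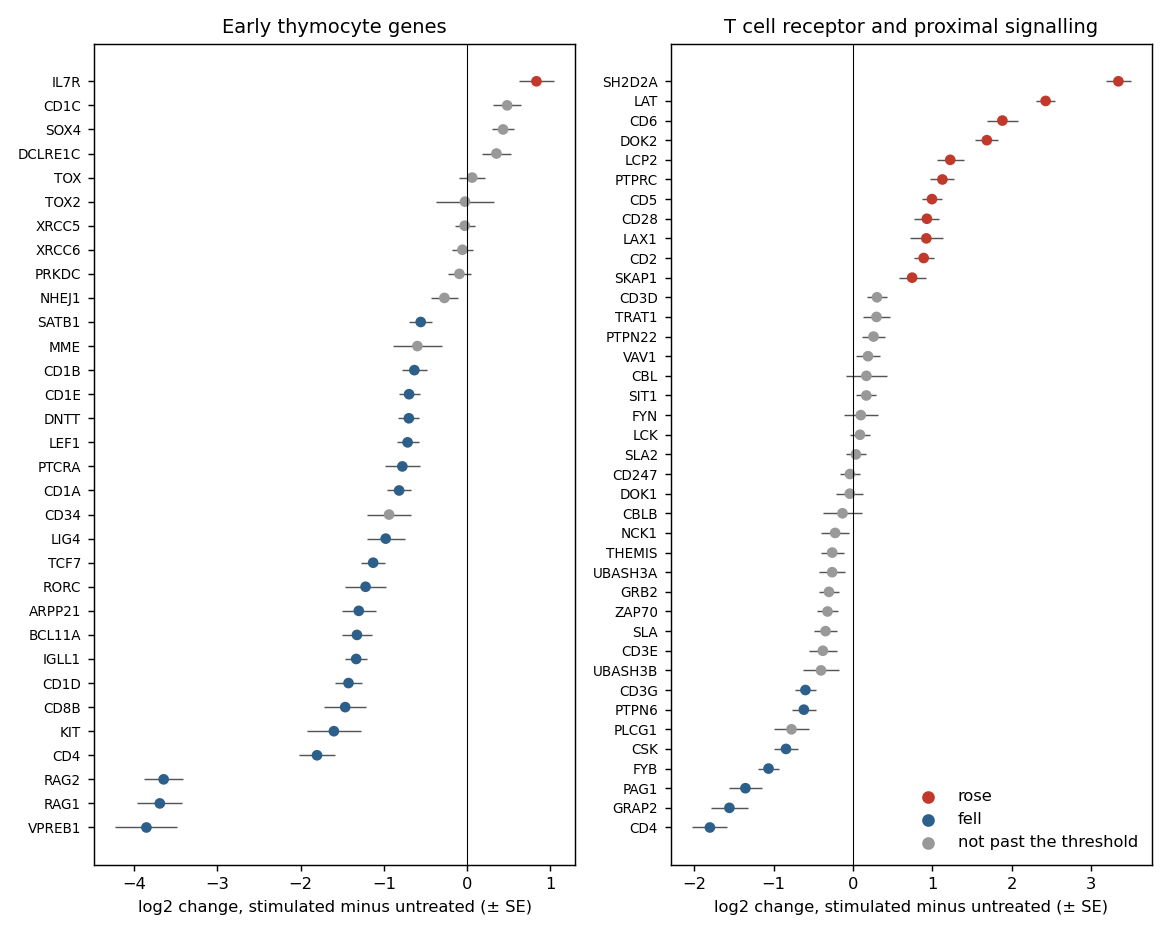
Log2 change of TPM + 1 (stimulated minus untreated, points with ± SE bars, n = 2 libraries per group) for the tested early thymocyte genes (left) and 39 of the 40 tested genes of the T cell receptor and its proximal signalling (right). RAG1, RAG2 and VPREB1 lie below -3 and most other thymocyte genes below 0, while the receptor list runs from CD4 at -1.80 to SH2D2A at 3.34.

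Of 31 T lineage and leukaemia transcription factors, 7 rose and 7 fell (3 and 4 in the pooled fit, 2 to 3 and 3 to 6 with 1 left out), with a median log2 change of -0.32. LMO1, a LIM protein and T cell oncogene, was at 2.02 and 1.47 TPM after stimulation and at 20.7 and 19.8 TPM in the controls (log2 change -2.96 ± 0.23, adjusted p = 0.000184). IKZF2, an Ikaros family factor, was at 5.7 and 2.48 TPM after stimulation and at 19.1 and 17.8 TPM in the controls (log2 change -2.01 ± 0.32). BCL11B, which fixes T cell identity, was at 23.5 and 17.2 TPM after stimulation and at 61.7 and 49 TPM in the controls (log2 change -1.41 ± 0.21), and TCF7, an early T cell factor, at 42.1 and 37.8 TPM after stimulation and at 84.8 and 92.1 TPM in the controls (log2 change -1.13 ± 0.15). In the other direction, the repressor BACH2 was at 35.8 and 29.5 TPM after stimulation and at 4.2 and 3.78 TPM in the controls (log2 change 2.75 ± 0.21, adjusted p = 0.000153). The repressor BCL6 was at 21.4 and 23.7 TPM after stimulation and at 3.43 and 3.06 TPM in the controls (log2 change 2.47 ± 0.21). As for every called gene, the groups of these factors did not overlap. In the NOTCH pathway 4 of 23 rose and 4 fell (2 and 3 in the pooled fit, 0 to 1 and 1 to 4 with 1 left out; median log2 change -0.30): NOTCH1 was at 5.6 and 2.96 TPM after stimulation and at 13.8 and 14.8 TPM in the controls (log2 change -1.58 ± 0.28, adjusted p = 0.00945), and its coactivator MAML3 rose by 2.00 ± 0.30. In the pooled fit BCL6 and NOTCH1 did not pass (adjusted p = 0.0778 and 0.105).

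Of 24 BCL2 family and death genes, 4 rose and 2 fell (2 and 0 in the pooled fit; median log2 change 0.07). BCL2A1, an anti-apoptotic NF-kB target, was at 253 and 191 TPM after stimulation and at 1.48 and 0.736 TPM in the controls (log2 change 6.73 ± 0.24, adjusted p = 4.08e-06), and the survival protein MCL1 at 112 and 101 TPM after stimulation and at 29.2 and 25.4 TPM in the controls (log2 change 1.92 ± 0.15). Of 27 CDK inhibitors and cyclins, 2 rose and 7 fell (1 and 1 in the pooled fit, 1 and 0 with any left out; median log2 change -0.21). CDKN1A, the inhibitor p21, was at 196 and 183 TPM after stimulation and at 2.64 and 0.922 TPM in the controls (log2 change 6.17 ± 0.29, adjusted p = 1.54e-05). Other inhibitors went the other way: CDKN2D was at 14.1 and 20.4 TPM after stimulation and at 64.7 and 51 TPM in the controls (log2 change -1.70 ± 0.22), and CDKN1B had a log2 change of -0.78 ± 0.16. The cyclin CCND3 was at 192 and 202 TPM after stimulation and at 417 and 411 TPM in the controls (log2 change -1.07 ± 0.12). The mitotic cyclins CCNB1 and CCNB2 did not pass, with log2 changes of 0.04 and -0.21. CDKN1B and CCND3 did not pass in the pooled fit (adjusted p = 0.379 and 0.731). Of 50 replication and mitosis genes 0 rose and 5 fell (0 and 0 in the pooled fit; median log2 change -0.28). BUB1B, a spindle checkpoint kinase, was at 69.1 and 68.7 TPM after stimulation and at 136 and 116 TPM in the controls, and RRM2, a ribonucleotide reductase subunit, at 677 and 687 TPM after stimulation and at 718 and 713 TPM in the controls (adjusted p = 0.756).

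Of 32 amino acid transport, ATF4 and unfolded protein response genes, 15 rose and 1 fell (3 and 0 in the pooled fit, 2 and 0 with any left out; median log2 change 0.45). SLC7A5, the light chain of the leucine transporter, was at 500 and 414 TPM after stimulation and at 77.1 and 76.5 TPM in the controls (log2 change 2.55 ± 0.14, adjusted p = 2.62e-05). PPP1R15A, which restores translation after stress, was at 138 and 152 TPM after stimulation and at 21.5 and 15.4 TPM in the controls (log2 change 2.92 ± 0.18), and the stress factor DDIT3 at 180 and 207 TPM after stimulation and at 27.9 and 42.4 TPM in the controls. HSPA5, the main chaperone of the endoplasmic reticulum, was at 963 and 1063 TPM after stimulation and at 334 and 358 TPM in the controls (log2 change 1.55 ± 0.12, adjusted p = 0.000197). The chaperone CALR, the 1 member that fell, was at 590 and 477 TPM after stimulation and at 908 and 999 TPM in the controls. ATF4 itself was at 486 and 358 TPM after stimulation and at 434 and 413 TPM in the controls (adjusted p = 0.951). In the pooled fit SLC7A5, PPP1R15A, HSPA5 and CALR did not pass, with adjusted p-values of 0.0828, 0.221, 0.0612 and 0.406.

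Of 28 sterol synthesis and uptake genes, 0 rose and 11 fell (0 and 2 in the pooled fit, 0 and 0 to 1 with 1 left out; median log2 change -0.43). SREBF1, a master regulator of lipid synthesis, was at 5.8 and 7.76 TPM after stimulation and at 27.5 and 32.7 TPM in the controls (adjusted p = 0.000884). SCD, which desaturates fatty acids, was at 150 and 111 TPM after stimulation and at 396 and 348 TPM in the controls (log2 change -1.52 ± 0.17), and LSS, the lanosterol synthase, at 76.2 and 68.6 TPM after stimulation and at 149 and 153 TPM in the controls. The sensor INSIG1 was at 448 and 503 TPM after stimulation and at 587 and 494 TPM in the controls (adjusted p = 0.45). SCD and LSS did not pass in the pooled fit (adjusted p = 0.19 and 0.622). Under median-of-ratios scaling 1 sterol gene rose and 10 fell.

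Of 29 genes of glycolysis and hexose uptake, 3 rose and 4 fell (1 and 1 in the pooled fit, 0 to 1 and 0 with 1 left out; median log2 change -0.13). The glucose transporters moved in opposite directions: SLC2A3 was at 43.6 and 50 TPM after stimulation and at 10.4 and 6.79 TPM in the controls (log2 change 2.34 ± 0.23), and SLC2A1 at 17.2 and 16 TPM after stimulation and at 53.5 and 58.9 TPM in the controls (log2 change -1.70 ± 0.16). Pyruvate kinase PKM was at 1757 and 1496 TPM after stimulation and at 606 and 662 TPM in the controls (log2 change 1.35 ± 0.13), whereas hexokinase HK2 was at 3.38 and 1.77 TPM after stimulation and at 16.7 and 14.2 TPM in the controls (log2 change -2.24 ± 0.28). SLC2A1 and PKM did not pass in the pooled fit (adjusted p = 0.548 and 0.412). Of 40 ribosome biogenesis genes, many of which MYC is known to regulate, 0 rose and 4 fell (0 and 0 in the pooled fit, median log2 change -0.09). Over all tested genes 6.39% fell. Under median-of-ratios scaling 1 of these genes rose and 1 fell, and a link to MYC was not tested. NOP56, a component of the complex that methylates ribosomal RNA, was at 228 and 238 TPM after stimulation and at 325 and 335 TPM in the controls, and NPM1 at 1850 and 1804 TPM after stimulation and at 2010 and 1926 TPM in the controls (adjusted p = 0.623).

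Of 23 tested plasminogen activators, proteases and matrix genes, 16 rose and 2 fell (13 and 2 in the pooled fit, 9 to 10 and 2 with 1 left out; median log2 change 1.39). TIMP1, an inhibitor of matrix metalloproteinases, was at 67.3 and 67.4 TPM after stimulation and at 1.22 and 1.9 TPM in the controls (log2 change 4.75 ± 0.22, adjusted p = 1.51e-05), and the metalloproteinase MMP10 at 8.17 and 14.5 TPM after stimulation and at 0 in both controls, at least 21.2-fold higher. MMP10 could pass the filter only through the stimulated libraries. LGALS1, a lectin, was at 95.5 and 99.3 TPM after stimulation and at 7.98 and 8.71 TPM in the controls, and the sheddase ADAM19 rose by 3.07 ± 0.29. The members that fell were TIMP2 (log2 change -1.42 ± 0.26) and ADAMTS1 (log2 change -1.80 ± 0.25).

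Homing receptors changed in both directions, with 11 rises and 7 falls among 37 adhesion, trafficking and chemoattractant receptor genes (6 and 5 in the pooled fit, 4 to 5 and 1 to 3 with 1 left out; median log2 change 0.12). CCR7, which guides cells into lymph nodes, was at 23.3 and 28.4 TPM after stimulation and at 3.51 and 2.83 TPM in the controls (log2 change 2.69 ± 0.22, adjusted p = 0.000242). SELPLG, a selectin ligand, was at 42.7 and 48.2 TPM after stimulation and at 214 and 189 TPM in the controls (log2 change -2.13 ± 0.14), and P2RY8, a confinement receptor of germinal centre cells, at 13.1 and 10.8 TPM after stimulation and at 66.2 and 63.6 TPM in the controls (log2 change -2.36 ± 0.17). RGS16, which dampens such receptors, was at 6.77 and 8.62 TPM after stimulation and at 0.458 and 0 TPM in the controls. Of 26 quiescence and FOXO target genes, which overlap this list, 6 rose and 4 fell (4 and 1 in the pooled fit, 2 to 3 and 0 to 2 with 1 left out; median log2 change -0.13); the antiproliferative BTG1 was at 23.8 and 16.7 TPM after stimulation and at 5.53 and 4.08 TPM in the controls. Of 38 actin and cytoskeleton genes, 7 rose and 1 fell (2 and 0 in the pooled fit, 1 to 2 and 0 with 1 left out; median log2 change 0.25). ZYX, a focal adhesion protein, was at 210 and 200 TPM after stimulation and at 16 and 17.9 TPM in the controls (log2 change 3.52 ± 0.14, adjusted p = 8.56e-06), whereas actin ACTB was at 8899 and 8698 TPM after stimulation and at 9253 and 9596 TPM in the controls (adjusted p = 0.687).

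Regulators of messenger RNA decay included a pair of paralogs with opposite changes. Of 22 such genes, 5 rose and 2 fell (2 and 1 in the pooled fit, 2 and 0 to 1 with 1 left out; median log2 change 0.05). ZFP36L1, which binds AU-rich elements, was at 288 and 277 TPM after stimulation and at 13.4 and 12.4 TPM in the controls (log2 change 4.35 ± 0.14, adjusted p = 2.6e-06), and ZFP36L2 was at 14.6 and 17.8 TPM after stimulation and at 47.9 and 50.6 TPM in the controls (log2 change -1.55 ± 0.17, adjusted p = 0.00105). ZFP36, the third member, was at 62.5 and 56.8 TPM after stimulation and at 20.2 and 30.5 TPM in the controls (log2 change 1.23 ± 0.21), without a call in the pooled fit (adjusted p = 0.436).

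Beside ATP6V0A4, 20 other subunits of the vacuolar proton pump were tested, of which ATP6V0A2 rose by 0.96 ± 0.25 and ATP6V0E2 had a log2 change of -0.65 ± 0.13; 2 of 21 rose and 1 fell (1 and 0 in the pooled fit; median log2 change 0.05). Of 15 cyclophilins, 1 rose and 0 fell (0 and 0 in the pooled fit; median log2 change -0.01). That gene was PPIF, the mitochondrial cyclophilin that regulates the permeability pore, at 339 and 290 TPM after stimulation and at 197 and 201 TPM in the controls (log2 change 0.65 ± 0.13, adjusted p = 0.0156; 0.457 in the pooled fit). Of 37 interferon-stimulated genes, 6 rose and 3 fell (1 and 3 in the pooled fit, 0 to 1 and 0 to 1 with 1 left out; median log2 change -0.40). The antiviral protein RSAD2 was at 2.22 and 2.56 TPM after stimulation and at 11.7 and 11.1 TPM in the controls (log2 change -1.87 ± 0.23), and the GTPase GBP3 at 26.4 and 35.5 TPM after stimulation and at 9.83 and 9.37 TPM in the controls (log2 change 1.58 ± 0.21). Of 17 MHC class I and antigen presentation genes, 3 rose and 2 fell (2 and 0 in the pooled fit, 0 to 2 and 0 with 1 left out; median log2 change -0.25); HLA-B was at 45 and 37.5 TPM after stimulation and at 17.4 and 21.6 TPM in the controls, a gene whose reads can be lost to its near copies. Of 34 housekeeping genes, YWHAZ rose and none fell (0 and 0 in the pooled fit; median log2 change -0.05), and GAPDH was at 5696 and 5120 TPM after stimulation and at 5825 and 5808 TPM in the controls (adjusted p = 0.661).

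The change in Jurkat was then tested against the mean change of the other 3 lines, whose ligands differ. Stimulated library 1 of U937 and of BJAB stood apart from its partner: the SD over genes of the log2 difference between the libraries of a pair was 0.918 and 1.01 in these groups, and 0.319 to 0.426 in the others. GAPDH was at 1546 and 5229 TPM in the stimulated BJAB libraries and at 6061 and 6449 TPM in the BJAB controls, and DUSP6 at 11.7 and 42.9 TPM in stimulated U937 and 54.8 and 50 TPM in its controls. Values without these libraries, 14 in the fit, are therefore given beside the others. With all 16 libraries in the fit, the changes of 551 of 11920 genes differed at an adjusted p under 0.05 (4.62%), 386 with a higher change in Jurkat (3.24%) and 165 with a lower one (1.38%). The counts depended on the setting: lower changes numbered 108 without the first control, higher and lower ones 240 and 52 with a pseudocount of 0.1, and 740 and 490 with stimulated library 1 of U937 and of BJAB left out. The median difference of all tested genes was 0.16. Beside this, 10 of 22 MAP kinase feedback genes, 12 of 37 immediate-early genes, 9 of 21 cytokines and 8 of 20 TNF superfamily genes had a higher change in Jurkat, and 8 of 32 early thymocyte genes a lower one. With 14 libraries these counts were 11, 18, 11, 13 and 13 in the same order. Of 23 plasminogen activators, proteases and matrix genes, 10 had a higher change in Jurkat and 2 a lower one. With 14 libraries these were 15 and 2. For the thymocyte genes the comparison rests on genes that the other lines hardly express: RAG2 was at 0 in all U937 and BJAB libraries and below 0.1 TPM in THP-1. Such libraries lend the estimate hardly any spread, so the SEs and p-values of these genes can be too small.

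Genes of the early response differed in which other line moved with Jurkat. EGR1 had a log2 change of 5.89 in Jurkat, 0.60 in THP-1, -1.04 in U937 and 4.56 in BJAB, a difference of 4.52 ± 0.35 (adjusted p = 9.95e-06). CD69 had log2 changes of 4.01 in Jurkat, -0.22 in THP-1, -0.26 in U937 and 3.77 in BJAB, a difference of 2.91 ± 0.32 (adjusted p = 0.000161). For ZFP36L1 the changes were 4.35 in Jurkat, 0.45 in THP-1, -0.06 in U937 and 4.23 in BJAB. Jurkat was not tested against BJAB alone. NFKBIA had positive changes in all lines, 2.80 in Jurkat, 1.28 in THP-1, 1.49 in U937 and 1.83 in BJAB, and still differed by 1.27 ± 0.30 (adjusted p = 0.0335). For BIRC3 the difference was 1.17 ± 0.54 (adjusted p = 0.389), with a change of 3.73 in BJAB, and for PPIF it was 0.91 ± 0.40 (adjusted p = 0.354). With 14 libraries BIRC3 passed (adjusted p = 0.00213) and PPIF did not (adjusted p = 0.0522). EGR1, CD69 and NFKBIA then differed by 4.42, 2.86 and 1.13 and passed. DUSP5 (difference 5.19 ± 0.42), TRAF1 (4.60 ± 0.44), LAT (2.56 ± 0.34) and RASGRP1 (-2.36 ± 0.25) differed at adjusted p-values of 1.35e-05, 5.45e-05, 0.00065 and 0.000125. The members of the sterol, replication and ribosome lists gave no call in this test. With 14 libraries a lower change in Jurkat was called for 13 of 28, 1 of 50 and 5 of 40 of them. Over all tested genes it was called for 490 of 11920.

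**Figure D5:**
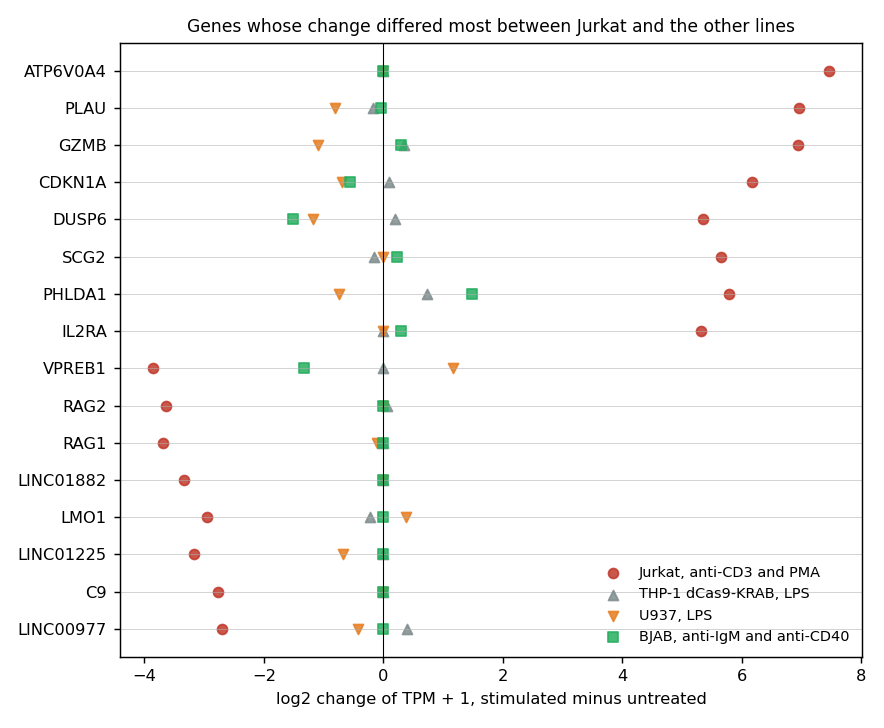
Log2 change of TPM + 1 (stimulated minus untreated, n = 2 libraries per group) in each of the 4 lines for the 8 genes with the largest positive and the 8 with the largest negative difference between Jurkat and the mean of the other lines. The Jurkat points lie above 5 for the upper 8 genes and below -2 for the lower 8, and the values of ATP6V0A4 and LINC01882, each at 0 in both libraries of a Jurkat group, depend on the pseudocount.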

How the data were processed

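RNA was measured in 16 libraries (SmartSeq2, oligo-dT primed, per the labels' protocols), of which 4 were of Jurkat. The authors deposited TPM per gene; alignment with TopHat2 to hg19 is recorded in the submitters' processing notes, and for versions, annotation, counter and strand use the sources used here give nothing. The values came from unique alignments, by the names the authors deposited them under, so reads of near-identical genes may be lost and those of overlapping genes mixed. Each file listed 27311 genes. The steps of the TPM values gave whole reads for 17860 (93.5%, tolerance 0.001) of 19092 detected genes, and the other 1232 were above 0 in 1 library only. These reads are the smallest whole numbers that the TPM values allow. For a gene above 0 in few libraries the true reads may be a multiple of them.

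Genes with at least 1 TPM in at least 2 of the 4 Jurkat libraries were tested with limma 3.58.1 (R 4.3.3) on log2(TPM + 1), with a trend of the spread and Benjamini-Hochberg adjustment. Fold changes on this scale understate the change of low genes. The difference from the other lines used all 16 libraries. On simulated data of this comparison (11920 genes), the test recovered 41 of 100 genes changed by 1 and 93 of 100 changed by 2 on the log2 scale, with 4 false calls among 11720. Far fewer genes were changed there than were called in the data, and the noise was normal with a spread like that of limma's own model. Recovery and false calls in the data may therefore differ. The text names the 12 largest called rises and falls with separate groups and at least 5 TPM in the higher group. It also names up to 6 called and 2 uncalled members of each list, the CD3 chains, the protein kinase C genes, IL2, CD69, EGR1, NFKBIA and PPIF. From the difference it names 8 genes each way. Small RNA genes, such as small nucleolar RNAs and microRNAs, were left out of these rankings. Other named genes were chosen after their values were seen. The members and lists were chosen with earlier results of these data known. A fold against a group at 0 is a bound at 3 reads per library; bounds cover counting error only. Some genes under these rules are not reported here. Promoters were scanned on both strands. Alternatives were other pseudocounts, filters, scalings, spreads, a block, voom on the recovered reads and each library left out.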

Additional observations from a re-analysis of the deposited data

Results flagged for a closer look

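By limma's test of the difference itself with all 16 libraries, the change in Jurkat differed most from the mean change of the other 3 lines for the genes below. These are 8 each way with at least 5 TPM in a group, small RNA genes left out. ATP6V0A4 differed by 7.46 on the log2(TPM + 1) scale and was at 0 in every library of the other lines; this value depends on the pseudocount. PLAU differed by 7.31 ± 0.81 SE (adjusted p = 0.00018), and unlike in Jurkat it was already present in untreated THP-1, at 23.4 and 20.3 TPM, and in untreated U937, at 49.4 and 49 TPM. The differences were 7.10 ± 0.32 for GZMB (adjusted p = 1.91e-07), 6.56 ± 0.85 for CDKN1A (adjusted p = 0.000548), 6.19 ± 0.59 for DUSP6 (adjusted p = 5.27e-05) and 5.63 ± 0.21 for SCG2 (adjusted p = 4.78e-08). PHLDA1 differed by 5.30 ± 0.29 (adjusted p = 6.89e-07) and IL2RA by 5.22 ± 0.29 (adjusted p = 7.38e-07). DUSP6 had log2 changes of 5.36 in Jurkat, 0.19 in THP-1, -1.17 in U937 and -1.52 in BJAB.

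On the side of falls, VPREB1 differed by -3.80 ± 0.61 (adjusted p = 0.00271), RAG2 by -3.67 ± 0.20 and RAG1 by -3.65 ± 0.20 (adjusted p = 6.52e-07 for each). For RAG2 and RAG1 these SEs lie below those of the Jurkat change alone, 0.24 and 0.27, and the same holds for SCG2, IL2RA and C9. Libraries at or near 0 in the other lines lend the estimate hardly any spread, so SEs and p-values of such genes can be too small. LINC01882 differed by -3.33 and C9 by -2.76 ± 0.23 (adjusted p = 1.89e-05), and both were at 0 in every library of the other lines; the value of LINC01882 depends on the pseudocount. LMO1 differed by -3.01 ± 0.27 (adjusted p = 3.68e-05), with 60.5 and 42 TPM in stimulated U937 and 36.7 and 40.8 TPM in untreated U937. LINC01225 differed by -2.94 ± 0.43 (adjusted p = 0.00141) and LINC00977 by -2.69 ± 0.34 (adjusted p = 0.000442). A stimulus and a line came together in each case and cannot be told apart.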

How the results depend on the processing

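The sign of all 1606 calls was the same under each alternative in which the gene was tested, and no named gene reversed. Only median-of-ratios scaling, quantile normalization and voom could have changed the sign of a call. In the other alternatives it was fixed, because the groups of each called gene were separate. The count of 1606 (844 rises, 762 falls) became 792 (508 and 284) with no filter on low values, over 16386 genes, 737 (455 and 282) with all 16 libraries in the fit, 2049 (991 and 1058) with 14 of them, and 962, of which 368 fell, with a minimum log2 change of 1. It ranged between 0 and 346 with 1 library left out (0 to 257 rises, 0 to 97 falls; 1 residual degree of freedom). With all 16 libraries in the fit, it was 464 (312 and 152) and 479 (309 and 170) without the first and second control and 513 (306 and 207) and 497 (318 and 179) without the first and second stimulated library. In these fits the lone library of a group is assumed to vary like the others. Of 259 named genes, 63 lost their call with all 16 libraries and 185 without either control, which left 0 calls. With 14 libraries, stimulated library 1 of U937 and of BJAB left out, 4 named genes lost their call and 5 gained a call. Median-of-ratios scaling gave 1710 calls with 59.3% higher, against 52.6%. Voom on the recovered reads gave 1844 calls. The replicate block gave 1800 calls; the same-numbered libraries shared only a number (r = 0.028).

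The 551 differences from the other lines (386 higher, 165 lower) became 292 (240 and 52) with a pseudocount of 0.1, 349 (248 and 101) with at least 5 TPM, over 9403 genes, and 1230 (740 and 490) with 14 libraries, a set chosen with their spread known. The lower differences numbered 280 with a pseudocount of 5, 301 with quantile normalization and 99 with the replicate block. With 1 Jurkat library left out the differences ranged from 381 to 422, the lower ones from 108 to 154. The cause of these shifts was not tested. At 6268819 to 8136836 reads per library, genes near 1 TPM rest on few reads.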
